A study of Mus musculus with 28 samples.

Results

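The EGF receptor family and its ligands were followed by 10 genes, chosen by gene name in both organoid expression tables. They are the receptors Egfr, Erbb2 and Erbb3, the receptor inhibitor Errfi1, and the ligands Tgfa, Areg, Ereg, Hbegf, Btc and Epgn. All 10 had 1 row among the 29413 genes of the table of BMP-treated organoids and 1 row among the 55416 genes of the table of Tgfb-treated organoids. RNA was sequenced from small intestinal organoids, 3-dimensional cultures of gut epithelium grown from crypts of wild-type C57BL/6 mice, which were first seeded in ENR, the standard medium of EGF, noggin and R-spondin. In the first table, organoids received recombinant Bmp2 (n = 4), Bmp3, Bmp4, Bmp5 or Bmp7 (n = 3 each) at 500 ng/ml for 24 h, or were left untreated (n = 4). In the second, 3 samples of the same kind of organoid received recombinant Tgfb at 500 ng/ml for 24 h and 3 were untreated. No source says whether replicates came from separate mice or cultures, so p-values measure only the spread between these samples. Each sample of the BMP table held 21358620 to 24784834 reads, recovered from the steps of its values. The Tgfb table is in TPM, transcript abundance scaled to a fixed total per sample, and its depth is unknown.

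EGF-family ligands are made as membrane-anchored precursors, cut free by proteases, and bind EGFR on the same or neighbouring cells. EGFR then pairs with itself, ERBB2 or ERBB3 and signals through RAS and the ERK kinases. In the intestine this signal supports proliferation in the crypt and repair after injury, and BMP signals, strongest toward the villus, oppose the crypt state.

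Egfr, Areg and Btc rose 16.8-fold, 14.9-fold and 7.50-fold with BMP2, and no tested member fell with any ligand. Of the 9 genes that averaged at least 10 normalized counts in every group, BMP2 raised 9, BMP4 9, BMP5 7 and BMP7 7, and BMP3 changed 0 of them. The other gene, Epgn, passed the minimum of 10 on average over the table through the BMP2 samples alone, and is described separately. The background was wide. BMP2 raised 36.8% of all 14746 genes tested and lowered 38.4%. BMP4 raised 33.7% and lowered 31.4%. BMP5 raised 16.5% and lowered 9.87%, and BMP7 raised 19.2% and lowered 13.2%. With the replicate number as a block the genes lowered went from 1455 to 2593 (BMP5) and from 1940 to 3148 (BMP7). BMP3 changed 0% of them, with 110 genes at an unadjusted p under 0.05 in limma, and 0 genes called by edgeR and 1 by DESeq2. The BMP3 changes of the 10 genes ran from -0.10 (Erbb2) to 0.30 (Ereg), each with an adjusted p of 1. The median log2 change of the 9 genes was 2.21 for BMP2, where that of all genes was -0.03. It was 0.98 for BMP4 (all genes 0.04), 0.98 for BMP5 (all genes -0.03) and 1.08 for BMP7 (all genes -0.05). Changes are limma differences of log2(normalized count + 1), called at an adjusted p under 0.05 over all genes tested.

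**Figure D1:**
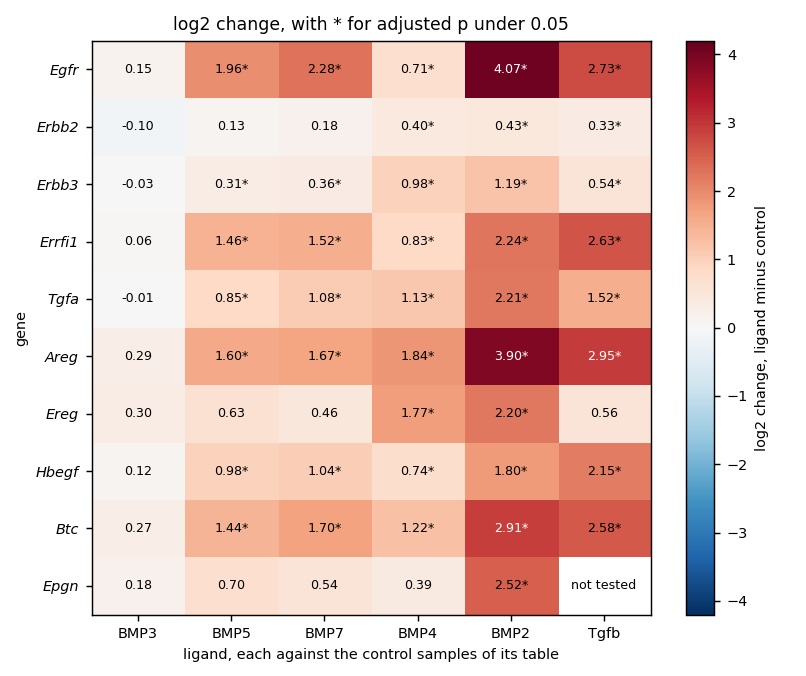
Log2 change of each of the 10 genes (rows) with each ligand against the untreated samples of its table (columns), coloured from blue (lower) to red (higher). A star marks an adjusted p under 0.05 in limma. The BMP3 column holds no star, and values of 2.91 or more stand in the BMP2 column for Egfr, Areg and Btc and in the Tgfb column for Areg. The star of Epgn rests on a minimum passed through the BMP2 samples alone.

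The samples carried epithelial RNA. All 7 epithelial markers listed (Epcam, Cdh1, Vil1, Krt8, Krt18, Krt19 and Cdx2) were detected, with summed levels of 117300 to 132300 normalized counts in the untreated samples and 668200 to 855600 with BMP2. The sums were 118600 to 130300 with BMP3, 252700 to 361400 with BMP4, 212400 to 360000 with BMP5 and 261600 to 376200 with BMP7. Mesenchymal markers summed to 27.29 to 242 normalized counts across the BMP table, where 6 of the 8 had a row and Col3a1 was at 0 in the untreated samples. In the Tgfb table they summed to 5.13 to 9.50 TPM, with Col1a2, Col3a1, Dcn and Lum at 0, against 17560 TPM in freshly isolated mesenchymal cells. Endothelial markers (Pecam1, Cdh5, Kdr and Vwf) summed to 587.3 to 782.3 normalized counts untreated, 864.5 to 1035 with BMP2 and 875.7 to 1042 with BMP4. They overlapped the untreated range with the other BMPs. Immune markers summed to 37.17 to 149.9 across the BMP table. Id1, a direct BMP target, lay at 112 to 171 normalized counts in the untreated samples, at 124 to 136 with BMP3 and at 667 to 3510 with the other BMPs. In the other table it lay at 7.71 to 9.71 TPM untreated and 49.5 to 79.2 TPM with Tgfb. Crypt stem cell markers (Lgr5, Olfm4, Ascl2, Smoc2 and Axin2, 5 of 5 detected) summed to 99820 to 124500 in the untreated samples. They summed to 99010 to 119300 with BMP3, 27410 to 77170 with BMP5, 24230 to 28510 with BMP7, 3689 to 6504 with BMP4 and 1165 to 2048 with BMP2. Enterocyte markers summed to 47850 to 91260 untreated and 354200 to 437800 with BMP4, and overlapped the untreated range with the other BMPs. Goblet markers summed to 25010 to 40910 untreated and 78180 to 134600 with BMP4. Tuft markers summed to 365.2 to 431.2 untreated, 1480 to 2315 with BMP2, 774.1 to 783.7 with BMP4, 548.2 to 629.6 with BMP5 and 621.7 to 763.3 with BMP7. Paneth cell markers summed to 94050 to 116600 untreated, 33990 to 90920 with BMP2 and 67230 to 81780 with BMP7, and overlapped the untreated range otherwise. The part of these shifts in the changes below was not tested, and in bulk RNA fewer cells of a type and less RNA per cell cannot be told apart.

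Egfr (ENSMUSG00000020122), which encodes the receptor shared by all 6 ligands, was the most changed of the receptors. Its normalized counts were 1510, 1370, 1340 and 1170 in the untreated samples and 25700, 18100, 26800 and 21000 with BMP2. The lowest BMP2 sample lay far above the highest untreated one, and the log2 change was 4.07 (SE 0.16, adjusted p = 2.98e-13). BMP7 gave 7230, 5570 and 6900, and BMP5 gave 3800, 5840 and 6400. Both groups lay between untreated and BMP2 samples without overlapping either, with log2 changes of 2.28 (SE 0.17, adjusted p = 4.1e-08) and 1.96 (SE 0.17, adjusted p = 2.7e-07). BMP4 gave 1960, 2000 and 2710, above every untreated sample but below every BMP5 and BMP7 sample, for a log2 change of 0.71 (SE 0.17, adjusted p = 0.00128). BMP3 gave 1560, 1470 and 1450, which overlapped the untreated samples. The order of the means was untreated, BMP3, BMP4, BMP5, BMP7 and BMP2, and the neighbours untreated and BMP3, and BMP5 and BMP7, overlapped.

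Erbb3 (ENSMUSG00000018166), a receptor with a nearly inactive kinase domain that signals in pairs with the others, followed a different order. It measured 4710 ± 404 normalized counts untreated (SD, n = 4), 10738 ± 1129 with BMP2 (n = 4) and 9247 ± 621 with BMP4 (n = 3). Neither group overlapped the untreated one, and the log2 changes were 1.19 (SE 0.10, adjusted p = 1.66e-09) and 0.98 (SE 0.10, adjusted p = 1.6e-07). With BMP5 and BMP7 the changes were 0.31 (adjusted p = 0.0345) and 0.36 (adjusted p = 0.0121). The BMP5 call was lost in 7 of 17 alternative analyses, among them those without BMP5 replicate II (adjusted p = 0.0749), BMP5 replicate VI (0.156), untreated replicate III (0.114) or untreated replicate VI (0.055). The BMP7 call was lost in 2, without BMP7 replicate II (0.0735) and with quantile normalization (0.0967).

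Erbb2 (ENSMUSG00000062312), the ligandless partner receptor, moved least. It measured 1940 to 2330 normalized counts untreated, 2330 to 3480 with BMP2 and 2510 to 3190 with BMP4. The BMP2 range touched the untreated one and the BMP4 range lay above it, with log2 changes of 0.43 (SE 0.11, adjusted p = 0.0015) and 0.40 (SE 0.12, adjusted p = 0.00563). Both rises rested on the scaling: with every sample set to the same total they were -0.031 and 0.001, and with quantile normalization 0.016 and 0.048, with no call. BMP5 (2110 to 2560) and BMP7 (2290 to 2610) overlapped the untreated range.

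Errfi1 (ENSMUSG00000028967), whose product binds activated EGFR and ERBB2 and blocks their kinases, rose with each BMP other than BMP3. It measured 1300, 1370, 1170 and 1260 normalized counts untreated and 4490, 6560, 6170 and 7160 with BMP2, with no overlap. The log2 change was 2.24 for BMP2 (SE 0.23, adjusted p = 4.16e-08), 1.52 for BMP7 (adjusted p = 0.000109), 1.46 with BMP5 (adjusted p = 0.000211) and 0.83 with BMP4 (adjusted p = 0.00632). BMP4 gave 1510, 2650 and 2870, and BMP5 gave 2130, 4400 and 4620, where replicate II was the low sample each time. Under same-total scaling the BMP4 changes of Errfi1 (0.43, adjusted p = 0.123), Egfr (0.31, adjusted p = 0.108) and Hbegf (0.34, adjusted p = 0.122) were not called, nor was Erbb2, which left 5 of the 10 genes called with BMP4. That scaling moved the median of all genes from 0.04 to -0.35 with BMP4 and from -0.03 to -0.48 with BMP2.

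**Figure D2:**
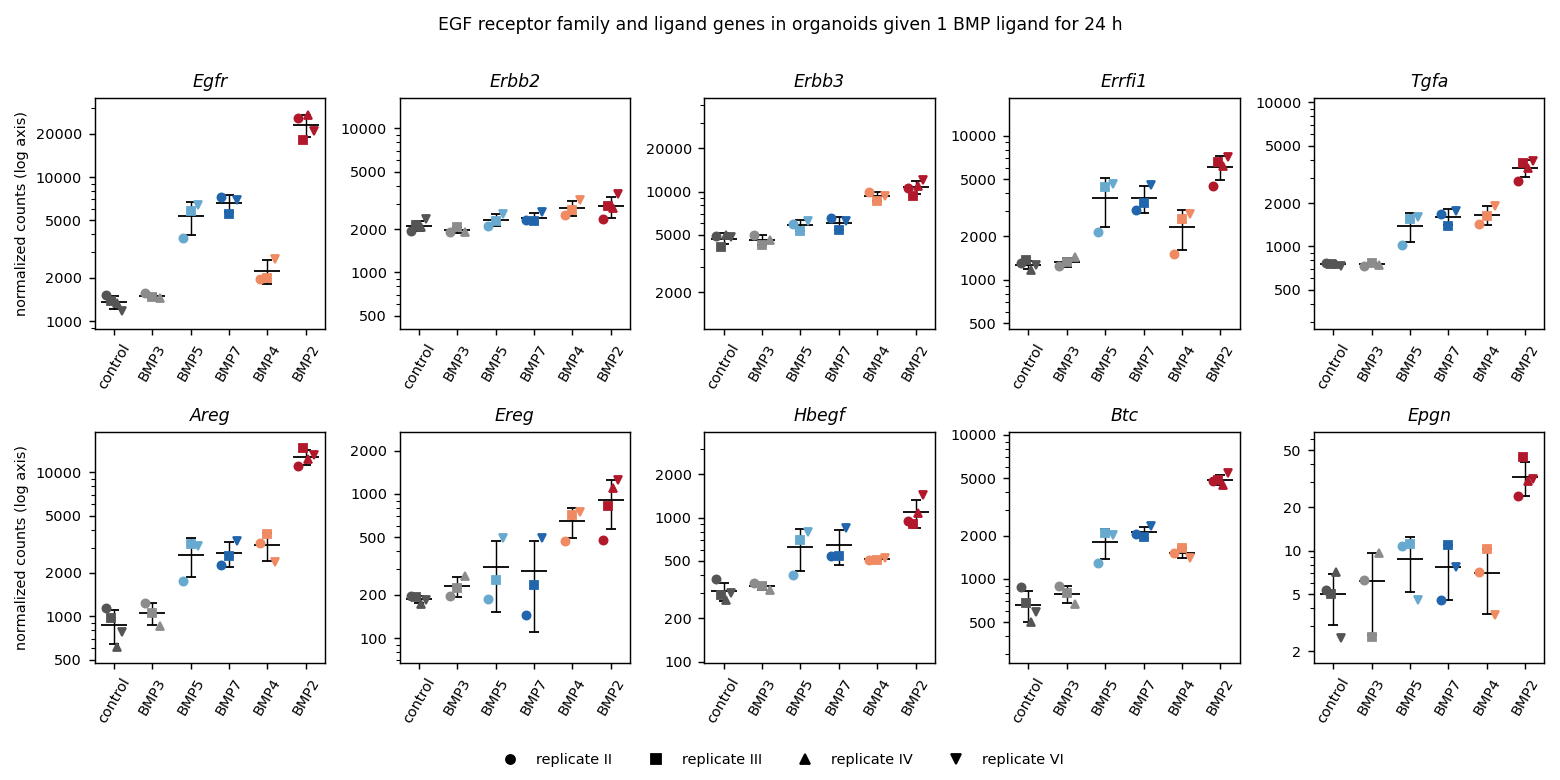
Normalized counts on a log axis for the 10 genes in untreated and BMP-treated organoids, 1 symbol per sample by replicate label, with the mean (wide bar) and SD (capped line). Every panel spans the same fold, so heights compare between genes. Egfr separates into a BMP2 level of 18100 to 26800, a BMP5 and BMP7 level of 3800 to 7230 and a BMP4 level of 1960 to 2710, where Erbb2 stays between 1900 and 3480 throughout.

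Areg (ENSMUSG00000029378) encodes amphiregulin, a ligand of EGFR known from epithelial repair. It measured 1140, 966, 615 and 777 normalized counts untreated and 11000, 14700, 12300 and 13200 with BMP2, so that every BMP2 sample was far above every untreated one. The log2 change was 3.90 (SE 0.21, adjusted p = 8.1e-12). BMP4 gave 3220, 3730 and 2390, BMP7 gave 2260, 2620 and 3340, and BMP5 gave 1760, 3200 and 3070. These 3 groups overlapped each other and none overlapped the untreated samples, with log2 changes of 1.84, 1.67 and 1.60 (adjusted p = 1.05e-06, 1.89e-05 and 4.09e-05).

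Btc (ENSMUSG00000082361) encodes betacellulin, which binds EGFR and ERBB4. It measured 874, 684, 503 and 591 normalized counts untreated and 4760, 4840, 4500 and 5450 with BMP2. The groups did not overlap, and the log2 change was 2.91 (SE 0.16, adjusted p = 8.56e-12). With BMP7 it was 1.70, with BMP5 1.44 and with BMP4 1.22 (adjusted p = 6.87e-07, 6.69e-06 and 4.85e-06), from 1970 to 2330, 1300 to 2080 and 1390 to 1640 normalized counts.

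Tgfa (ENSMUSG00000029999) encodes transforming growth factor alpha, an EGFR ligand made by many epithelia. The 4 untreated samples lay within 734 to 772 normalized counts and the BMP2 samples at 2860, 3790, 3480 and 3920. The change was 2.21 for BMP2 (SE 0.13, adjusted p = 3.24e-11), 1.13 for BMP4, 1.08 for BMP7 and 0.85 for BMP5 (adjusted p = 1.61e-06, 1.46e-05 and 0.000226). Hbegf (ENSMUSG00000024486), the heparin-binding ligand, measured 270 to 373 untreated and 907 to 1430 with BMP2, a log2 change of 1.80 (SE 0.19, adjusted p = 8.46e-08). It reached 542 to 849 with BMP7, 401 to 791 with BMP5 and 505 to 521 with BMP4, with changes of 1.04, 0.98 and 0.74 (adjusted p = 0.000806, 0.00172 and 0.00421).

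Ereg (ENSMUSG00000029377) encodes epiregulin, a low-affinity ligand of EGFR and ERBB4. It measured 195, 193, 172 and 183 normalized counts untreated, 477, 821, 1100 and 1250 with BMP2, and 474, 719 and 754 with BMP4. BMP3 gave 197, 224 and 269. BMP2 and BMP4 raised it clear of the untreated samples, by 2.20 (SE 0.34, adjusted p = 1.13e-05) and 1.77 (SE 0.37, adjusted p = 0.00037). BMP5 gave 188, 254 and 493 and BMP7 gave 145, 234 and 494, where replicate VI was high and replicate II at or under the untreated level. The changes of 0.63 and 0.46 did not pass the test (adjusted p = 0.237 and 0.358). With the replicate number as a block, the BMP5 change was 0.66 (adjusted p = 0.0425). Without BMP7 replicate VI the BMP7 change was -0.01.

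Epgn (ENSMUSG00000035020), which encodes epigen, was the scarcest. BMP2 samples held 21, 35, 26 and 25 reads and untreated samples 6, 6, 8 and 3. All BMP2 samples, at 23.8 to 44.8 normalized counts, lay above the untreated range of 2.48 to 7.10. Because the gene passed the minimum through these samples alone, its difference is given with no test. BMP3, BMP4, BMP5 and BMP7 samples held 3 to 12 reads each and overlapped the untreated range.

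Areg, Egfr, Errfi1 and Btc had the largest changes of the 9 genes tested with Tgfb (2.95, 2.73, 2.63 and 2.58) and rose with each BMP except BMP3, so the 250 bases before their start sites, from RefSeq, are shown. The windows are on build GRCm38.p6, read 5′ to 3′ on the gene's strand, in lower case with motif matches in capitals. Windows of 7 of the 10 genes were searched, and Erbb3, Ereg and Hbegf were left out of the search. Errfi1 had 2 windows, of which the one at the start found in its transcript is shown.
Areg, chr5:91139349-91139598, plus strand: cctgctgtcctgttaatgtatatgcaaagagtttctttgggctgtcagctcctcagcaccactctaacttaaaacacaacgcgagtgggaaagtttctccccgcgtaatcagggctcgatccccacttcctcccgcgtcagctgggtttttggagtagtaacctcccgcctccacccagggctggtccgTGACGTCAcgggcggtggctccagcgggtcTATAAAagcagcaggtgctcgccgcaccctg
Errfi1, chr4:150854820-150855069, plus strand: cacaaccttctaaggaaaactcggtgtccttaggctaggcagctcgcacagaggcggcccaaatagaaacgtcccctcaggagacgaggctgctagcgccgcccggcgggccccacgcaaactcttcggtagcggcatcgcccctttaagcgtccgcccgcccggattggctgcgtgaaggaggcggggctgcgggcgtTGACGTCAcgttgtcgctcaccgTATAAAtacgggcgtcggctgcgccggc
Btc, chr5:91402995-91403244, minus strand: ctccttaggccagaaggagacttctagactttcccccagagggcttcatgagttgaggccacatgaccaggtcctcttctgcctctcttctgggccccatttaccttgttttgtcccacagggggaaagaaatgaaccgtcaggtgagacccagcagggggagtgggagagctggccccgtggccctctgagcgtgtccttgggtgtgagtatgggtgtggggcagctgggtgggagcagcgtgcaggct
Egfr, chr11:16751953-16752202, plus strand: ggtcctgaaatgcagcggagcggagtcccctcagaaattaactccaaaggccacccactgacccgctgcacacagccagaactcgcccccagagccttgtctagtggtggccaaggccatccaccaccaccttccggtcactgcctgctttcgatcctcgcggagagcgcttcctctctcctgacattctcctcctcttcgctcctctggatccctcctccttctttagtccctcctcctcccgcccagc
The Areg window held the cAMP response element TGACGTCA, first base at -61 from the start site, and the TATA box TATAAA at -31. The Errfi1 window held the same pair, at -51 and -28, and 124 of its bases overlap an exon of the antisense gene 1700045H11Rik in the GENCODE annotation of that build. The motif matches shown do not overlap each other. TGACGTCA occurred in 1.55% and TATAAA in 12.4% of the 32851 windows of that length. The Btc and Egfr windows held no match to the letters searched on both strands, which also included TGANTCA (AP-1), CATTCC (TEAD), GTCTAGAC (SMAD) and GGCGCC (GC-rich SMAD). These letters have shares of 6.75%, 12.6%, 0.17% and 9.59%.

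Epgn, Ereg, Areg and Btc lie side by side on chromosome 5 in RefSeq, with Mthfd2l and Parm1 as the flanking protein-coding genes. Ereg, Areg and Btc rose with BMP2, and so did Mthfd2l (log2 change 0.84, adjusted p = 6.93e-07) and Parm1 (1.21, adjusted p = 2.32e-09). Of all genes, 36.8% rose with BMP2. With BMP4, Ereg, Areg and Btc rose by 1.77, 1.84 and 1.22, where Mthfd2l fell by 0.52 (adjusted p = 0.000493) and Parm1 changed by -0.14 (adjusted p = 0.254). Mthfd2l and Parm1 changed by 0.34 and 0.34 with BMP5 (adjusted p = 0.0344 and 0.0272) and by 0.16 and 0.33 with BMP7 (0.305 and 0.0242). With Tgfb they changed by 0.08 and 1.31 (adjusted p = 0.594 and 4.54e-05). Egfr and Erbb2 lie on chromosome 11, Erbb3 on 10, Errfi1 on 4, Tgfa on 6 and Hbegf on 18.

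By limma's F-test each of the 9 genes differed somewhere among the 5 BMPs, as did 84.1% of all genes tested. The 5 include BMP3, which changed 0 genes, so a rise with any other BMP can pass this test. It does not show which BMPs differ, and the direct comparisons follow. BMP2 exceeded BMP4 in 6 of the 9 genes (Egfr, Errfi1, Tgfa, Areg, Hbegf and Btc), where 33.4% of all genes were higher with BMP2. The Egfr difference was the largest of these, 3.36 on the log2 scale (SE 0.17, adjusted p = 8.33e-12), and the Areg difference was 2.06 (SE 0.23, adjusted p = 2.17e-07). Ereg differed by 0.43 (95% interval -0.35 to 1.21), Erbb3 by 0.21 (-0.005 to 0.43) and Erbb2 by 0.03 (-0.22 to 0.27), with no call. BMP2 exceeded BMP7 in 8 of the 9, Erbb2 excepted (0.24, 95% interval -0.001 to 0.49), where 31.4% of all genes were higher with BMP2. Areg stood 2.23 higher (SE 0.23, adjusted p = 1.26e-07) and Egfr 1.79 higher (SE 0.17, adjusted p = 5.78e-08). The smallest of the 8, Errfi1 at 0.72 (adjusted p = 0.0156), was not called under same-total scaling (0.33), quantile normalization (0.34), without BMP7 replicate II (adjusted p = 0.0747) or without BMP7 replicate III (adjusted p = 0.0504). Hbegf, 0.76 higher (adjusted p = 0.00373), was not called under same-total scaling (0.37, adjusted p = 0.0957).

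BMP4 and BMP7 differed in both directions. Egfr was lower with BMP4 than with BMP7, by -1.57 (SE 0.18, adjusted p = 7.62e-07), as were Errfi1 (-0.69, adjusted p = 0.0297) and Btc (-0.48, adjusted p = 0.0286). Ereg (1.31, SE 0.40, adjusted p = 0.00824) and Erbb3 (0.62, SE 0.11, adjusted p = 9.56e-05) were higher with BMP4. These 5 of the 9 genes, 2 higher and 3 lower with BMP4, are near the 59.8% of all genes called in either direction. Of the 14746 genes tested, 4190 were higher and 4628 lower with BMP4, so the count is not particular to the family. The numbered replicates paired in this comparison, and with the number as a block Erbb2 was also called (0.216, adjusted p = 0.0109, against an adjusted p of 0.147 without the block). Of the 5 calls, 3 were lost in some fits with 1 library left out, though the direction stayed. The changes then ran from -0.864 to -0.401 (Errfi1), -0.543 to -0.412 (Btc) and 0.901 to 1.781 (Ereg). The Errfi1 call was lost without BMP4 replicate II (adjusted p = 0.20) or BMP7 replicate VI (0.13). The Btc call was lost without BMP4 replicate II (0.0596), BMP4 replicate VI (0.0879) or BMP7 replicate VI (0.0976). The Ereg call was lost without BMP7 replicate II (0.0657). BMP5 and BMP7 differed in 0 of the 9 genes in limma, with 0.0136% of all genes called and 347 at an unadjusted p under 0.05. The 2 ligands were 0.32 apart for Egfr (lower with BMP5, 95% interval of BMP5 minus BMP7 -0.71 to 0.06), and the Ereg interval ran from -0.67 to 0.995.

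The treated samples of replicates II and VI stood at the ends of their groups for some of the induced genes. In replicate II, Errfi1 measured 4490 (BMP2), 1510 (BMP4), 2130 (BMP5) and 3070 (BMP7), the lowest sample of each group. In replicate VI it measured 7160, 2870, 4620 and 4570, the highest of each. Ereg followed the same pattern in those 4 groups, from 477 to 1250 with BMP2 and from 145 to 494 with BMP7. Other members followed it only in part. Areg with BMP4 was 3220 in replicate II and 2390, the lowest, in replicate VI. Hbegf with BMP2 was lowest in replicate III (907), and Egfr with BMP7 was highest in replicate II (7230). The untreated replicates II and VI differed little, at 1300 and 1260 for Errfi1 and 195 and 183 for Ereg. Id1 measured 2800 and 2970 in replicates II and VI of BMP2, 2560 and 3510 in those of BMP4, 667 and 792 in those of BMP5 and 2330 and 1800 in those of BMP7. It was thus higher in replicate VI than in II in 3 of the 4 groups. Replicate III measured 2770 (BMP2), 1960 (BMP4), 1070 (BMP5) and 1480 (BMP7). That was the lowest sample with BMP4 and BMP7 and the highest with BMP5, so Id1 did not follow the order of Errfi1 and Ereg.

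**Figure D3:**
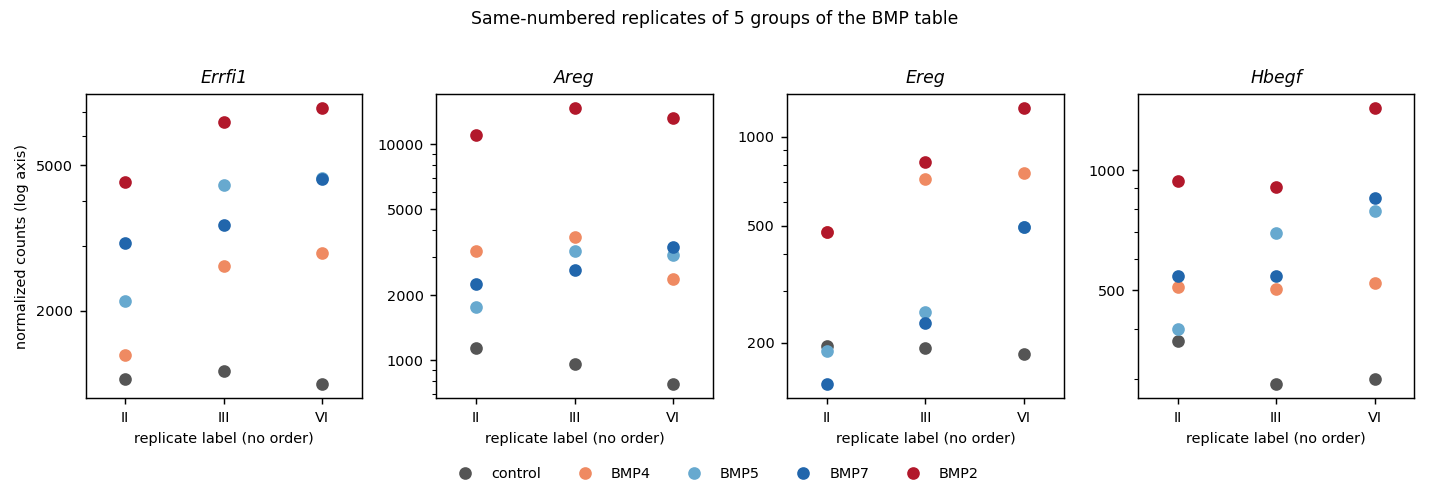
Normalized counts (log axis) of Errfi1, Areg, Ereg and Hbegf in replicates II, III and VI of 5 groups, coloured by group. The treated samples of replicate II sit lowest for Errfi1 and Ereg, where the untreated samples lie within 1260 to 1370 and 183 to 195.

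Tgfb raised 8 of the 9 genes tested in its table, where 27.4% of the 12959 genes tested rose and 29.3% fell. The median change of the 9 was 2.15 against -0.04 for all genes. These values are TPM, which are scaled for transcript length and allow levels of different genes to be compared. Stem cell markers summed to 2504 to 2956 TPM untreated and 165.2 to 172 TPM with Tgfb. Epithelial markers went from 3285 to 3564 TPM to 12660 to 16990 TPM, goblet markers from 2027 to 2525 to 1318 to 1484 TPM, and enterocyte markers from 4288 to 6157 to 3053 to 3853 TPM. Paneth cell markers went from 12560 to 15520 to 8843 to 11540 TPM, enteroendocrine markers from 278.8 to 287.3 to 338.3 to 376.3 TPM, and tuft markers from 6.35 to 9.60 to 10.7 to 13.9 TPM. The part of these shifts was not tested.

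Egfr rose from 11.16, 10.59 and 10.97 TPM to 71.1, 73.0 and 91.9 TPM, with no overlap and a log2 change of 2.73 (SE 0.11, adjusted p = 1.01e-05). Erbb3 was the most abundant receptor untreated, at 47.1 ± 2.17 TPM (SD, n = 3), and rose to 69.0 ± 5.01, by 0.54 on the log2 scale (adjusted p = 0.00141). Erbb2 rose from 24.9 ± 1.07 to 31.6 ± 2.50 TPM, by 0.33 (adjusted p = 0.0123). Egfr was thus the lowest of the 3 receptors in untreated organoids and above both others in the mean with Tgfb, where its samples overlapped those of Erbb3 (64.2 to 74.2 TPM). Errfi1 measured 24.5, 19.3 and 19.4 TPM untreated and 141.4, 120.1 and 144.7 TPM with Tgfb, a change of 2.63 (SE 0.12, adjusted p = 1.62e-05).

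Areg was the most abundant of the 6 ligands in both groups. It measured 12.9, 17.7 and 21.3 TPM untreated and 122.7, 147.2 and 144.8 TPM with Tgfb, a change of 2.95 (SE 0.18, adjusted p = 4.26e-05). Btc rose from 7.13 ± 1.01 to 47.6 ± 4.82 TPM, by 2.58 (adjusted p = 1.72e-05), and Hbegf from 4.26 ± 0.57 to 22.4 ± 4.12 TPM, by 2.15 (adjusted p = 6.23e-05). Tgfa rose from 8.40 ± 0.67 to 25.9 ± 1.14 TPM, by 1.52 (adjusted p = 2.33e-05). Ereg stayed low, at 0.76, 1.40 and 1.46 TPM untreated and 1.64, 2.20 and 2.92 TPM with Tgfb. The Tgfb samples lay just above the untreated ones, and the change of 0.56 did not pass the test (adjusted p = 0.0764, and 0.0458 without Tgfb replicate I). Epgn, at 0.09 to 0.17 TPM untreated and 0.25 to 0.47 TPM with Tgfb, was under the minimum of 1 TPM and was not tested. The 6 ligands summed to 38.4 ± 5.80 TPM untreated and 236.7 ± 21.5 TPM with Tgfb. Areg made up 44.6% ± 4.41 of that sum untreated and 58.4% ± 1.97 with Tgfb, Tgfa 22.1% ± 1.80 and 11% ± 0.74, and Btc 18.6% ± 0.56 and 20.1% ± 0.32.

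**Figure D4:**
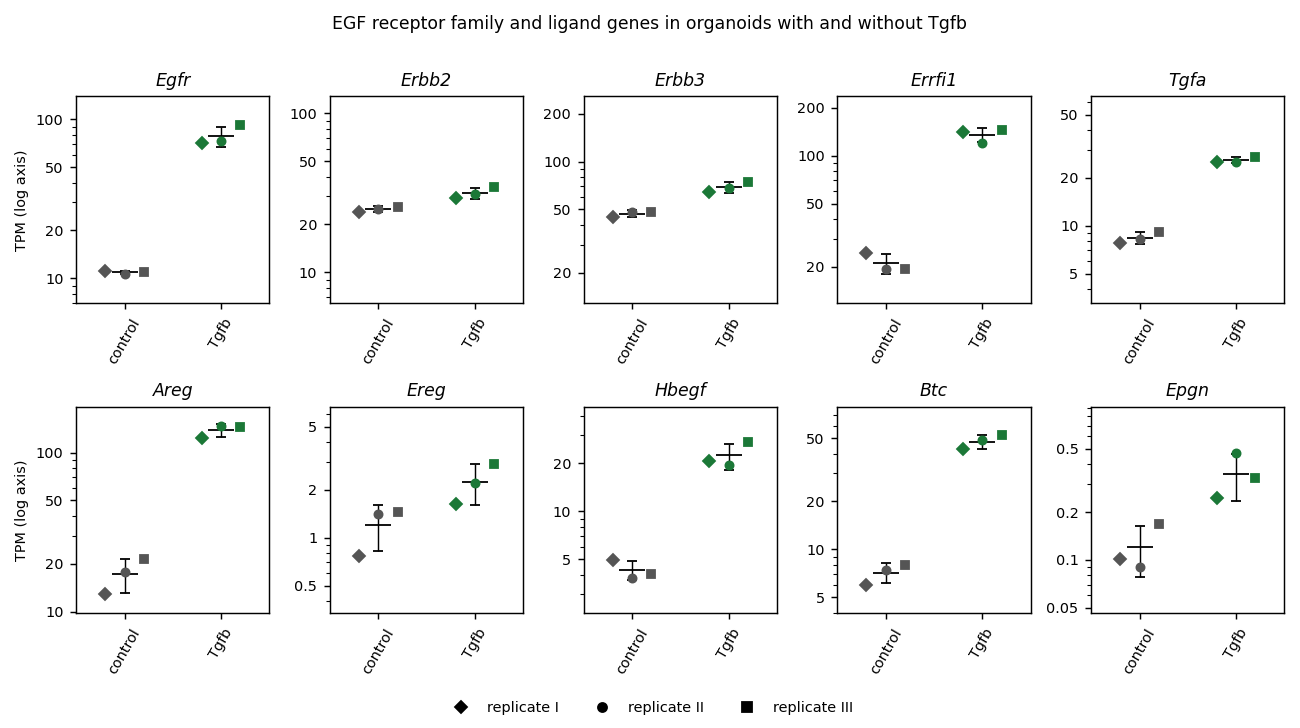
TPM on a log axis for the 10 genes in 3 untreated and 3 Tgfb-treated samples, 1 symbol per sample, with the mean (wide bar) and SD (capped line). Every panel spans the same fold. Egfr and Errfi1 separate most clearly among the receptors and the inhibitor, and Ereg stays under 3 TPM in all 6 samples.

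Other genes of the family ran the opposite way or were barely detected. Nrg4, a neuregulin that binds ERBB4, held 29, 41, 63 and 59 reads in the untreated samples of the BMP table and 1, 1, 2 and 1 with BMP2, far below every untreated sample. Its fitted change with BMP2 was -4.03 (adjusted p = 1.97e-09), a size that depends on the added 1 at such low counts. With BMP4 it fell by 1.30 (12 to 17.8 normalized counts against 25.8 to 55.9, adjusted p = 0.00351). With Tgfb it lay at 0.52 to 1.55 TPM against 2.76 to 3.84 untreated, a fitted fall of 1.17 whose size also depends on the added 1. Nrg4 passed the minimum of 1 TPM through the untreated samples alone (mean with Tgfb 0.956 TPM), so this difference is given with no test. Egf itself fell with BMP2 by 2.89 and with BMP4 by 1.53 (adjusted p = 2.89e-05 and 0.0163), from 19 to 33 reads untreated to 0 to 4 and 4 to 12 reads. The BMP4 call of Egf was lost with a pseudocount of 0.1 (0.128) and without BMP4 replicate III (0.0751) or replicate VI (0.0684). BMP5 and BMP7 gave no call for Nrg4 or Egf. Erbb4, Nrg1, Nrg2 and Nrg3 stayed under 10 normalized counts in every sample and were not tested.

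Of 5 genes of enzymes and cofactors that release the ligands (Adam10, Adam17, Rhbdf1, Rhbdf2 and Rhbdl2), 4 were higher in each of the BMP2, BMP5, BMP7 and Tgfb groups. Of all genes, 36.8%, 16.5%, 19.2% and 27.4% rose there. The gene not called in these groups, named after its value was seen, was Adam17. It averaged 1232.5 normalized counts untreated, 1227.2 with BMP2, 1260 with BMP5 and 1316.7 with BMP7. In the other table it averaged 15.7 TPM untreated and 17.1 TPM with Tgfb. With BMP4, 2 were higher and 1 lower, near the 33.7% and 31.4% of all genes. The lower one, named after its value was seen, was Rhbdf1 (-0.73, adjusted p = 0.000284), another carrier of ADAM17. Rhbdl2, a rhomboid protease that can cut EGF, measured 147 ± 8.45 normalized counts untreated (SD, n = 4) and 691 ± 15.7 with BMP2 (n = 4), a log2 change of 2.23 (adjusted p = 2e-12). Its rise was 1.45 for BMP4, 0.92 for BMP7, 0.74 for BMP5 and 1.41 for Tgfb (adjusted p = 5.24e-09, 7.83e-06, 0.000114 and 0.00742). Adam10, the sheddase of EGF and betacellulin, rose by 1.37 with BMP2 and 0.84 with Tgfb (adjusted p = 1.31e-10 and 0.000336). Its rise of 0.57 with BMP4 (adjusted p = 6.05e-05) was not called under same-total scaling (0.17) or quantile normalization (0.06). Rhbdf2, a carrier of the sheddase ADAM17, rose by 1.28 with BMP2 and 0.66 with Tgfb (adjusted p = 1.92e-09 and 0.000431), and changed by 0.13 with BMP4 (adjusted p = 0.31).

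Of 9 genes listed for restraint of the receptors, 6 rose and 2 fell with BMP2 (36.8% and 38.4% of all genes), and 5 rose and 2 fell with Tgfb (27.4% and 29.3%). With BMP4, 3 rose and 3 fell, near the 33.7% and 31.4% of all genes. BMP5 and BMP7 each raised 2 and lowered 2, where the shares of all genes were 16.5% and 9.87%, and 19.2% and 13.2%. The 2 that fell with BMP2, BMP4, BMP5, BMP7 and Tgfb were Lrig1 and Lrig3, which encode related membrane proteins. LRIG1 is known to lower EGFR levels, and Lrig1 is also a marker of crypt stem cells. Lrig1 went from 4400 to 5990 normalized counts untreated to 518 to 578 in the BMP2 and 447 to 555 in the BMP4 samples, and fell by 3.19 and 3.32 (adjusted p = 5.93e-13 and 4.87e-12). It fell by 0.99 (BMP7), 0.63 (BMP5) and 1.42 (Tgfb) (adjusted p = 4.48e-05, 0.00341 and 8.85e-05). Lrig3 fell by 3.72 (BMP2), 2.02 (BMP4), 1.56 (BMP7), 0.95 (BMP5) and 1.70 (Tgfb) (adjusted p = 1.04e-11, 2.46e-07, 2.93e-05, 0.00352 and 6.48e-05). Cblb, a ubiquitin ligase that marks receptors for degradation, rose by 1.33 (BMP2), 1.21 (BMP5), 1.18 (BMP7) and 1.60 (Tgfb) (adjusted p = 2.96e-08, 6.02e-06, 5.29e-06 and 1.01e-05). Socs5, an adaptor for receptor degradation, rose by 1.32 with BMP2 and 1.28 with Tgfb and fell by 0.92 with BMP4 (adjusted p = 0.000371, 4.79e-05 and 0.0138). The BMP4 fall of Socs5 was lost with quantile normalization (0.065) and without BMP4 replicate II (0.075).

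Of 15 genes for adaptors and the RAS to ERK cascade, BMP2 raised 13 (36.8% of all genes rose), BMP4 8 (33.7%), BMP7 6 (19.2%), BMP5 4 (16.5%) and Tgfb 5 (27.4%, near the list's share). With BMP4 1 fell, Gab1 (-0.42, adjusted p = 0.000975, named after its value was seen). Nras, the gene of a RAS protein, rose with BMP2 by 1.64 (adjusted p = 1.68e-11) and changed with BMP4 by -0.04 (adjusted p = 0.769). With Tgfb it rose by 1.06 (adjusted p = 0.00195). Nras was also higher with BMP5 and BMP7, by 0.569 to 0.673 and 0.594 to 0.738 with 1 library left out at a time. Map2k1, the gene of the kinase MEK1, rose by 1.52 (BMP2), 1.14 (BMP4), 0.61 (BMP7) and 1.05 (Tgfb) (adjusted p = 3.14e-08, 6.03e-06, 0.00793 and 3.36e-05). Its rise with BMP5 ran from 0.323 to 0.654 with 1 library left out. That call was lost in limma without BMP5 replicate III (adjusted p = 0.242) or VI (0.187), among other fits.

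Of 14 ERK feedback and target genes, 10 rose and 2 fell with BMP2, where 36.8% of all genes rose and 38.4% fell. BMP5 and BMP7 each raised 10 and lowered 1, where 16.5% and 19.2% of all genes rose. BMP4 raised 3 and lowered 6, where 33.7% of all genes rose and 31.4% fell. With Tgfb, 11 of 13 tested rose and 2 fell, beside 27.4% and 29.3% of all genes. The list's median change was 1.26 for BMP2, 0.77 for BMP5, 0.82 for BMP7, -0.34 for BMP4 and 1.45 for Tgfb, where the median of all genes lay between -0.05 and 0.04 in each. In the direct comparison 12 of the 14 were higher with BMP2 than with BMP4 (33.4% of all genes) and 0 lower. Against BMP7, 11 were lower and 1 higher with BMP4, where 59.8% of all genes differed in either direction. Dusp4, a phosphatase of nuclear ERK, measured 499 to 823 normalized counts untreated, 10100 to 15900 in the BMP2 samples and 812 to 927 in the BMP4 samples. It rose by 4.16 (BMP2), 1.77 (BMP7), 1.46 (BMP5) and 2.16 (Tgfb) (adjusted p = 1.05e-12, 2.84e-06, 3.42e-05 and 1.28e-05), and the change of 0.32 with BMP4 did not pass the test (adjusted p = 0.178). Dusp6, a phosphatase of cytoplasmic ERK, rose by 1.45 with BMP2, 1.42 with BMP4 and 1.51 with Tgfb (adjusted p = 5.71e-08, 4.34e-07 and 1.21e-05). The BMP2 minus BMP4 difference of Dusp6 was 0.03 (95% interval -0.31 to 0.37). Dusp6 was also higher with BMP5 and BMP7, by 0.728 to 1.02 and 0.86 to 1.027 with 1 library left out at a time. Ier3, an immediate early gene, rose by 3.97 with BMP2, 1.02 with BMP4 and 3.33 with Tgfb (adjusted p = 1.59e-12, 0.000206 and 1.09e-05). It was also higher with BMP5 and BMP7, by 1.849 to 2.382 and 2.101 to 2.35 with 1 library left out at a time. Etv5, a transcription factor gene induced by ERK and FGF signals, fell by 2.55 with BMP2, 3.33 with BMP4 and 1.27 with Tgfb (adjusted p = 2.18e-10, 1.07e-10 and 4.44e-05). With 1 library left out it changed by -0.676 to -0.413 with BMP5 and -0.711 to -0.47 with BMP7. Those 2 calls were lost in some limma fits, as without BMP5 replicate VI (adjusted p = 0.212) or BMP7 replicate VI (0.112).

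**Figure D5:**
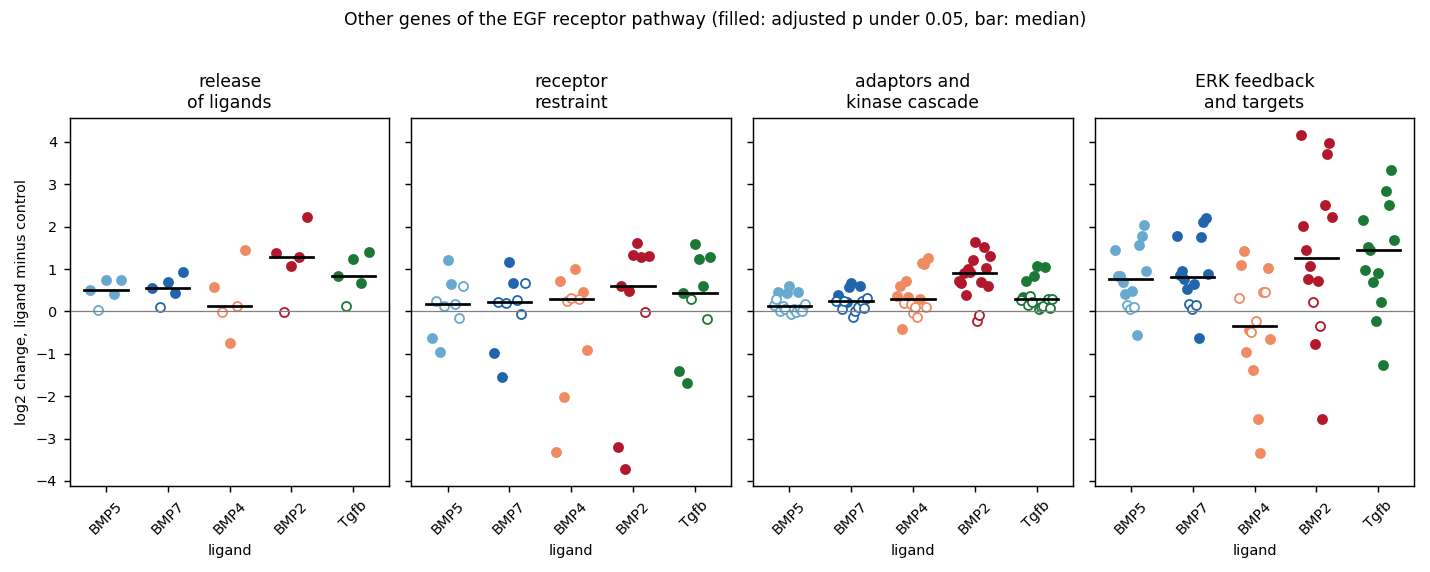
Log2 change against untreated organoids of the tested genes in 4 lists of the EGF receptor pathway, 1 point per gene, filled where the adjusted p in limma was under 0.05, with the list's median as a bar. In the ERK panel the BMP4 median lies at -0.34 and the other 4 medians between 0.77 and 1.45.

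The genes whose log2 values followed each member most closely over the 20 samples of the BMP table were found among 11855 other genes (11856 for Epgn) averaging at least 50 normalized counts. All 20 points share their groups and scaling, so these coefficients are descriptions. Egfr was followed by Cttnbp2nl, Myo1c and Acvr1, a BMP type I receptor gene (Pearson r = 0.993 each), and Tgfa by Prkx, Sh3glb1 and Crk (0.993 to 0.995). Areg was followed by Atp6v1g1, Ccdc71l and Lmo7 (0.987 to 0.99) and Btc by Il1rn, Cldn4 and Lrrfip1 (0.987 to 0.989). Erbb3 was followed by Spint1, Irak2 and Nuak2 (0.984 to 0.988), Errfi1 by Gm20186, Gm12840 and Lpcat4 (0.976 to 0.979), and Hbegf by Slfn4, Arhgap40 and Gprc5a (0.973 to 0.977). Ereg was followed by Cyb561a3, Stat2 and Bcl2l2 (0.955 to 0.963), Erbb2 by Tjp3, Coro2a and Sprr2a1 (0.945 to 0.959), and Epgn by Cacna2d1, Ccdc50 and Cxadr (0.907 to 0.928). Among the members themselves the highest coefficient was that of Areg with Btc (0.98) and the lowest that of Erbb2 with Epgn (0.433).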

How the data were processed

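The 10 genes and the pathway lists were chosen with earlier results of these data known. Per the labels' protocols, mRNA libraries were made with a KAPA kit and sequenced single-end. The sequencing runs are named but not tied to samples. Trim Galore, Salmon, DESeq2 and build GRCm39 are named in the submitters' processing notes, without versions, and whether counting used strand is not given in the sources used here. The BMP table holds a signal that the authors deposited as normalized counts, whole reads times 1 step per sample (0.83 to 1.28), kept to 3 significant digits. Of 180721 low values, 100% were whole reads within 0.1 reads. The Tgfb and mesenchymal tables hold TPM made by the authors, since each deposited column sums to 1000000.

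From these values, log2(value + 1) was fitted with limma 3.58.1 (R 4.3.3, trended variance), all groups of a table in 1 fit. Genes needed a mean of at least 10 normalized counts (14746 genes) or 1 TPM (12959 genes). P-values were adjusted by Benjamini-Hochberg over all genes tested, with a threshold of 0.05, and fold changes are on the log2(value + 1) scale. Intervals are 95% and cover the fit's error. The fit was tested on simulated data. All 10 members were named, with the genes of each list that had the 2 smallest p-values among BMPs and the 2 smallest with Tgfb, and for each member the 3 genes of highest correlation. A gene that this rule also names is not reported here.

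Same-numbered samples deviated together in every pair (r over 0.1) for BMP3, BMP4, BMP5 and BMP7 against untreated (0.158 to 0.553), BMP4 against BMP7 and BMP5 against BMP7 (0.15 to 0.489). The pairing comes from the label numbers and this check. Alternatives were other pseudocounts, filters and scalings, the replicate block, edgeR 4.0.16 and DESeq2 1.42.0 on recovered reads, only the groups compared, and each replicate left out. Build GRCm38.p6 served for gene order, chromosomes and promoter windows only, since the tables use GRCm39.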

Additional observations from a re-analysis of the deposited data

How the results depend on the processing

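Of 1281 alternative values for 79 changes of the 10 genes, 1224 kept direction and call, 26 lost the call, 11 gained it and 20 reversed. The tally includes Epgn, which passed the minimum through the BMP2 samples alone, so its share of the kept calls is no support for its change. For 68 called changes of pathway genes, 1049 of 1073 alternatives kept the call, 24 lost it and 0 reversed. They include Nrg4 with Tgfb, which passed the minimum through the untreated samples alone, so its kept calls are no support for its change. With every sample set to the same total, 5 genes were called with BMP4, the median of all genes moved from -0.03 to -0.481 (BMP2), 0.043 to -0.349 (BMP4), 0.036 to -0.347 (BMP2 against BMP7) and 0 to -0.325 (BMP4 against BMP7), and the share of higher calls went from 48.9% to 31.8%, 51.7% to 31.1%, 50.1% to 26.7% and 47.5% to 28.7%. For BMP7 against untreated it went from 59.4% to 48.7%, and with quantile normalization to 48%, as it did from 62.5% to 49.8% for BMP5. Reversals under same-total scaling were Erbb2 with BMP2 (-0.031), Erbb2 in BMP2 against BMP4 (-0.031), BMP2 against BMP7 (-0.145) and BMP4 against BMP7 (-0.114), and Tgfa (-0.285) and Areg (-0.151) in BMP4 against BMP7. With quantile normalization the same Erbb2 comparisons gave -0.032, -0.053 and -0.02, and Tgfa, Areg and Epgn in BMP4 against BMP7 gave -0.104, -0.064 and 0.283. EdgeR gave -0.064 for Tgfa there. Only changes that were not called in limma reversed, apart from Erbb2 with BMP2. Leaving out 1 replicate gave ranges of -0.069 to 0.126 (Erbb2, BMP2 against BMP4), -0.066 to 0.147 (Tgfa, BMP4 against BMP7), -0.445 to 0.204 (Epgn, BMP4 against BMP7) and -0.01 to 0.871 (Ereg, BMP7). The cause was not tested. Leaving out 1 replicate gave 3 to 5 members called in BMP4 against BMP7 (3 without BMP4 replicate II or BMP7 replicate VI), and 2515 to 4298 genes with BMP5 against 3884 with all samples (2515 and 2532 without BMP5 replicates III and VI). For BMP3 the count of all genes was 0 in limma, 1 in DESeq2, 3 with only the groups compared, and 0 to 1 with a replicate left out. For BMP5 against BMP7 it was 2, against 0 (pseudocount 0.1, or a mean of at least 50), 7 (pseudocount 10), 4 (no filter, or edgeR), 1 (same total, or quantile), 6 (replicate block), 23 (DESeq2) and 0 to 9 with a replicate left out. In comparisons where samples share only a number, the replicate block called Erbb3 in BMP2 against BMP4 (0.199, adjusted p = 0.00807), Erbb2 in BMP2 against BMP7 (0.263, adjusted p = 0.00206) and Ereg with Tgfb (0.555, adjusted p = 0.04) in limma. Apart from these, Ereg with BMP5 and Erbb2 in BMP4 against BMP7, the block changed no call of the 10 genes. DESeq2 was not run for the F-test. Epgn, Nrg4 and Egf rest on 0 to 63 reads a sample.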

Other observations

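The family was also measured in Pdgfra-positive mesenchymal cells of the duodenum of PdgfraH2BeGFP mice, in 1 freshly isolated and 1 immortalised sample, so no difference between them was tested. Ereg was the most abundant of the 6 ligands in both, at 29.7 TPM in the fresh and 41.8 TPM in the immortalised sample, which was 63.2% and 65% of the ligand sum of 47.0 and 64.3 TPM. In the untreated organoids of the Tgfb table Ereg made up 3.09% ± 0.66 (SD, n = 3). Hbegf followed in the mesenchymal samples, at 8.05 and 20.5 TPM, and Btc stood at 7.82 and 1.49 TPM. Areg, the leading ligand of the organoids, was at 0.83 and 0.11 TPM, Tgfa at 0.47 and 0.22 TPM, and Epgn at 0.14 and 0.17 TPM. Of the receptors, Egfr measured 51.9 and 54.0 TPM, Erbb2 9.64 and 10.7 TPM, and Erbb3 2.06 and 0.05 TPM. Errfi1 measured 15.9 and 14.2 TPM. Immune markers summed to 118.4 TPM in the fresh and 10.5 TPM in the immortalised sample, epithelial markers to 33.81 and 6.733 TPM, and stem cell markers to 38.92 and 3.471 TPM. Goblet (0.1017 and 2.177 TPM), enteroendocrine (8.926 and 14.38 TPM) and tuft markers (5.637 and 23.95 TPM) were higher in the immortalised one. The part of other cells in these levels was not tested. The mesenchymal table was scaled separately from the organoid tables.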
